A study of Drosophila melanogaster with 8 samples.

Results

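The glutathione S-transferase (GST) and UDP-glycosyltransferase (UGT) genes of Drosophila melanogaster were taken as all genes whose deposited name starts with Gst followed by D, E, O, S, T or Z and a digit, or with Ugt followed by a digit. This gave 52 genes, 35 Gst and 17 Ugt, of 17655 genes in the deposited tables. RNA was sequenced from 8 libraries, 1 for each combination of 4 diets and 2 sexes. All were adult Canton S flies, a wild-type strain, 15 days old, sampled after 7 days of feeding and a final 2 h of ordinary food. Food was rich in fat and held quercetin glucoside (HFD+QG), rich in fat and held epigallocatechin gallate (HFD+EGCG), rich in fat with no supplement (HFD), or normal (ND), and RNA came from bodies stripped of wings and legs. The labels used here do not give the doses, the make-up of the fatty food or how many flies went into a library, so a p-value reflects only how libraries vary, which may be technical.

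GSTs join the tripeptide glutathione to reactive molecules such as lipid aldehydes and insecticides, and UGTs join a sugar from a UDP-sugar to small fat-soluble compounds, which makes both kinds of product easier to excrete. In insects most GSTs belong to the Delta (GstD) and Epsilon (GstE) classes, which lie in gene clusters, while the Omega (GstO), Sigma (GstS), Theta (GstT) and Zeta (GstZ) classes have relatives in most animals. Gut, fat body and Malpighian tubules, the fly's excretory organ, are known sites of such detoxification, and several members are induced through the transcription factor CncC when its partner Keap1 lets go of it.

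Levels are in FPKM, read fragments scaled by the length of a transcript and the reads mapped in its library, rounded to whole numbers per transcript by the authors and summed here per gene. A transcript listed at 0 may stand for anything under 0.5 FPKM. Of the 52 genes, 31 reached 10 FPKM in a library, 25 Gst and 6 Ugt, and 16 stayed under 5 FPKM everywhere. GstD6, Ugt36Bb, Ugt37c1, Ugt86De and Ugt86Di were listed at 0 in all 8 libraries. GstD4, GstD11, Ugt37a1 and Ugt86Dg were above 0 but did not reach 1 FPKM in a library of each sex, which left 43 genes for tests, 32 Gst and 11 Ugt. These names cover Ugt only in part. The reference annotation gives Ugt names to 18 more genes that the tables list under other names, 8 of them at 10 FPKM or more in a library, and these were not counted as members. The most abundant of them, CG30438 (Ugt50B3), measured 1 to 2 FPKM in females and 85 to 112 FPKM in males, where it lay above every Ugt gene of the naming rule. Of the 35 Gst genes, 34 carry the annotation term for glutathione transferase activity, and GstT4 does not.

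GstD1, a Delta GST known for its activity on the insecticide DDT, was the most abundant member in every library. It measured 951, 1094, 1049 and 1211 FPKM in females on HFD+QG, HFD+EGCG, HFD and ND, and 982, 1197, 825 and 907 FPKM in males on the same diets. This one gene made up 38.8% to 44.6% of the summed Gst FPKM in females and 28.3% to 35.6% in males. GstE12 came next by the mean over the 8 libraries. It measured 399, 407, 445 and 305 FPKM in the 4 female libraries and 491, 493, 486 and 502 FPKM in the 4 male libraries. GstS1 lay above GstE12 in HFD+QG and HFD males, at 518 and 536 FPKM. The 35 Gst genes summed to 2452 to 2716 FPKM in females and 2912 to 3360 FPKM in males. The 17 Ugt genes summed to far less, 104 to 140 FPKM in females and 144 to 188 FPKM in males, and none of these 17 passed 54 FPKM.

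**Figure D1:**
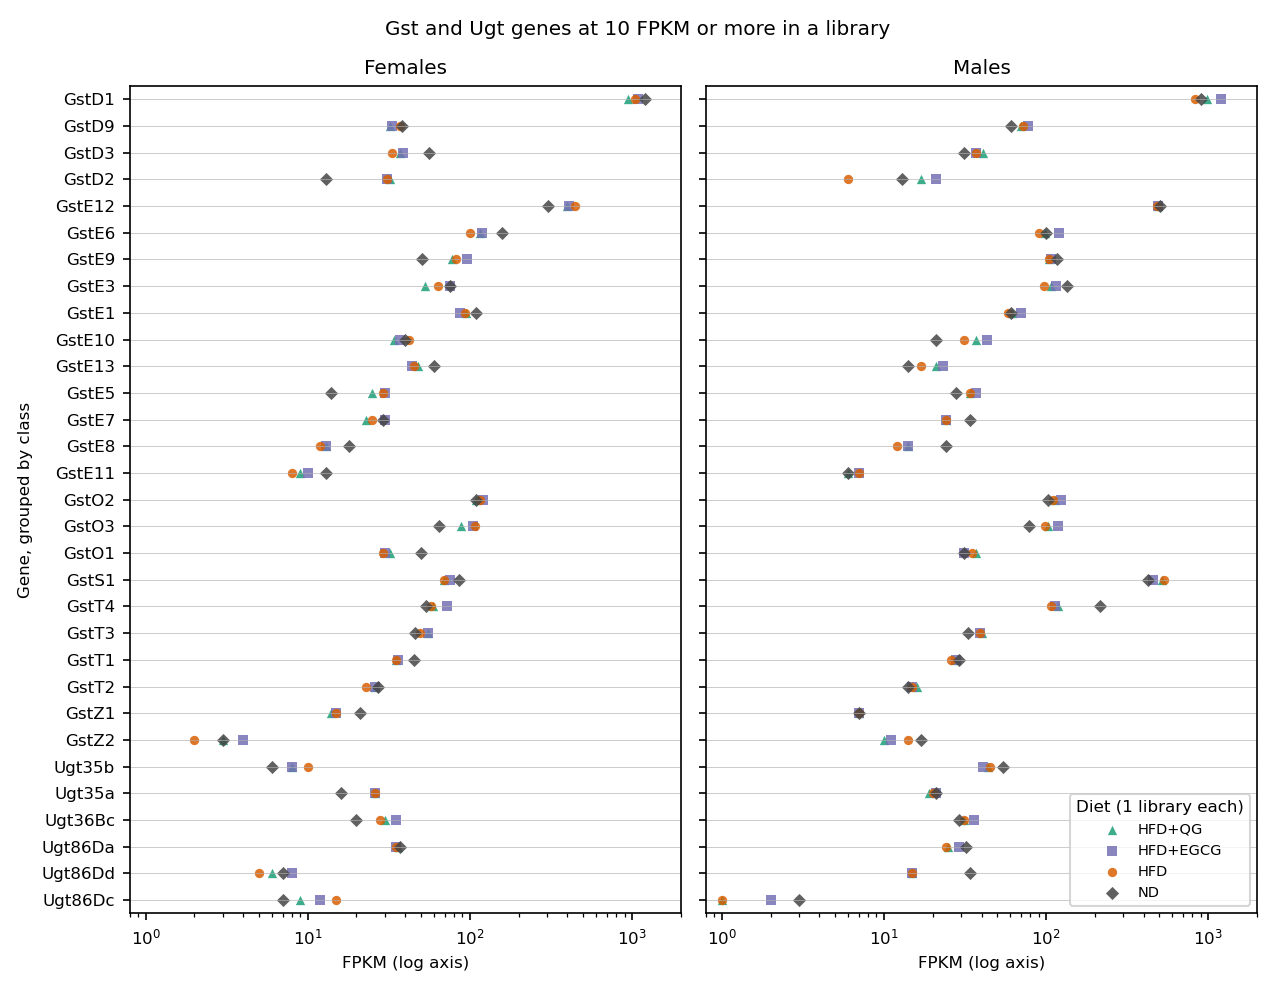
FPKM of the 31 Gst and Ugt genes that reached 10 FPKM in a library, on a log axis, with females in the left panel and males in the right and 1 point per diet. GstD1 lies far right of every other gene in both sexes, GstS1 lies at 69 to 86 FPKM in females and at 425 to 536 FPKM in males, and for GstT4 the male ND point stands apart from the other male points.

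The tables hold males and females separately and nothing states that they were scaled together, so levels between sexes are a description. Of the 47 members above 0, 10 had all 4 female libraries above all 4 male libraries, which held for 29.3% of all genes, and 11 had them below, which held for 38.8%. The share of members whose sexes did not overlap, 44.7%, was smaller than the 68.1% of all 13710 genes above 0.

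GstS1, the Sigma GST known to be abundant in flight muscle and to act on lipid aldehydes, had the widest gap. It averaged 74.8 ± 8.0 FPKM in females and 483.2 ± 52.4 FPKM in males (SD, n = 4 libraries, 1 per diet). The female minus male difference was -2.68 on the log2(FPKM + 1) scale. Ugt35b averaged 8.0 ± 1.6 FPKM in females and 46.0 ± 5.6 FPKM in males, and its neighbour Ugt35a overlapped between the sexes, at 16 to 26 FPKM in females and 19 to 21 FPKM in males. GstZ2 stood at 2 to 4 FPKM in females and 10 to 17 FPKM in males, while its neighbour GstZ1 stood at 14 to 21 FPKM in females and at 7 FPKM in every male library. Zeta GSTs act as maleylacetoacetate isomerases in the breakdown of tyrosine, and these 2 adjacent genes were biased to opposite sexes. Ugt86Dc, at 7 to 15 FPKM in females and 1 to 3 FPKM in males, and GstE13, at 44 to 60 FPKM in females and 14 to 23 FPKM in males, were the members furthest above in females among those at 5 FPKM or more, with log2 differences of 2.11 and 1.36.

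Marker genes of other tissues also differed between the sexes. The 13 muscle markers summed to 1967 to 4473 FPKM in females and 4882 to 6758 FPKM in males, and the 14 antenna and head markers to 1681 to 4497 FPKM in females and 6067 to 8164 FPKM in males. The 12 testis markers were listed at 0 in every female library and summed to 2554 to 3777 FPKM in males. Other lists went the other way. The 14 midgut markers summed to 11386 to 19812 FPKM in females and 7603 to 12129 FPKM in males. The 14 fat body markers, which include yolk protein genes, summed to 7332 to 22065 FPKM in females and 2033 to 3332 FPKM in males. The 16 egg markers summed to 1201 to 21894 FPKM in females and 1 to 2 FPKM in males. In whole bodies fewer cells of a type and less RNA per cell cannot be told apart, and the part of tissue make-up in any value here was not tested.

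To ask what high-fat food did within a sex, the HFD+QG, HFD+EGCG and HFD libraries were set together against the ND library with limma (log2(FPKM + 1), Benjamini-Hochberg adjustment over 9848 genes). The 3 high-fat libraries differ in supplement, so their spread includes any supplement effect, and the lone ND library is assumed to vary as they do.

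In males on high-fat food 3 members fell and none rose. Ugt86Dd, a UGT linked to differences in nicotine resistance between fly strains, measured 15 FPKM in each of the HFD+QG, HFD+EGCG and HFD males, against 34 FPKM in ND males. It was lower by limma (log2 change -1.13, SE 0.20, adjusted p = 0.0333). GstT4, a Theta-class gene, measured 119, 114 and 108 FPKM in HFD+QG, HFD+EGCG and HFD males, against 214 FPKM in ND males (log2 change -0.91, SE 0.13, adjusted p = 0.0162). GstE8 measured 14, 14 and 12 FPKM in HFD+QG, HFD+EGCG and HFD males, against 24 FPKM in ND males (log2 change -0.81, SE 0.13, adjusted p = 0.0236). For all 3 genes the high-fat libraries lay close together and ND stood alone above them.

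The 3 lower calls among 43 members, 6.98%, compare with 1.55% of all genes called lower in males, and the 0 higher calls with 2.34% called higher. At an unadjusted p under 0.05 there were 16 members (37.2%), against 2348 of all genes (23.8%). GstE10 came nearest of the others, with 37, 43 and 31 FPKM in HFD+QG, HFD+EGCG and HFD males, against 21 FPKM in ND males (log2 change 0.78, SE 0.18, adjusted p = 0.0512). All 3 male calls were lost when limma's variance trend was left out, where 1 gene in all was called against 383, and with the most abundant transcript per gene GstT4 alone was called. Midgut markers summed to 7603, 11804 and 10248 FPKM in HFD+QG, HFD+EGCG and HFD males, against 12129 FPKM in ND males, with 3 of 14 called lower. Fat body markers summed to 2391, 2117 and 2033 FPKM in HFD+QG, HFD+EGCG and HFD males, against 3332 FPKM in ND males, with 3 of 10 tested called lower. Other lists went up in those males. Muscle markers summed to 5897, 6178 and 6758 FPKM, against 4882 FPKM in ND males, with 2 of 13 called higher. Antenna and head markers summed to 8044, 8164 and 8127 FPKM, against 6067 FPKM in ND males, with 3 of 14 called higher. The part of these shifts in the male calls was not tested.

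In females on high-fat food 10 members rose and 7 fell. All genes moved widely in females: 20.8% were called higher and 31.0% lower, so the members' 23.3% higher and 16.3% lower lie in a library contrast in which 51.8% of genes were called. The balance rests on scaling: with median-centred libraries 14 members were called higher and 2 lower, against 28.3% and 11.1% of all genes.

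Of the Epsilon genes, 4 rose. GstE5 measured 25, 30 and 29 FPKM in HFD+QG, HFD+EGCG and HFD females, against 14 FPKM in ND females (log2 change 0.95, SE 0.12, adjusted p = 0.0009). GstE9 measured 78, 96 and 82 FPKM in HFD+QG, HFD+EGCG and HFD females, against 51 FPKM in ND females (log2 change 0.73, SE 0.11, adjusted p = 0.00216). GstE9 overlaps imd, an adaptor gene of the immune response, on the other strand, and whether counting used strand is not given in the sources used here, so its reads may be shared. GstE12, GstE13, GstO2 and GstT2 also overlap a gene on the other strand, and Delta and Epsilon genes are close copies whose shared reads were counted in a way not given here. GstE12 rose by 0.45 and GstE2, at 3 FPKM in each high-fat female library and 1 FPKM in ND females, by 1.00. The Delta gene GstD5, at 4, 3 and 3 FPKM in HFD+QG, HFD+EGCG and HFD females against 1 FPKM in ND females, rose by 1.11, a change between values that rounding sets. GstO3, an Omega GST, measured 88, 105 and 108 FPKM in HFD+QG, HFD+EGCG and HFD females, against 65 FPKM in ND females (log2 change 0.61, SE 0.14, adjusted p = 0.00886).

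Of the 11 tested Ugt genes 4 rose and none fell in females, where 20.8% of all genes were called higher and 31.0% lower. Ugt35a measured 26 FPKM in each high-fat female library, against 16 FPKM in ND females (log2 change 0.67, SE 0.10, adjusted p = 0.00159). Ugt36Bc measured 30, 35 and 28 FPKM in HFD+QG, HFD+EGCG and HFD females, against 20 FPKM in ND females (log2 change 0.60, SE 0.14, adjusted p = 0.00965). Ugt86Dj rose by 1.11 and Ugt35b by 0.46, both below 11 FPKM in all female libraries. All 4 had every high-fat library above ND.

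The members that fell in females came from 5 GST classes, and no Ugt gene was among them. GstO1, an Omega GST known to reduce dehydroascorbate, measured 32, 30 and 29 FPKM in HFD+QG, HFD+EGCG and HFD females, against 50 FPKM in ND females (log2 change -0.70, SE 0.12, adjusted p = 0.00257). It fell while GstO3 from the same gene cluster rose. GstD3 measured 37, 39 and 33 FPKM in HFD+QG, HFD+EGCG and HFD females, against 56 FPKM in ND females (log2 change -0.61, SE 0.11, adjusted p = 0.00408). GstZ1, GstT1, GstE8, GstE6 and GstE11 fell by 0.34 to 0.51 on the log2 scale. GstE8 was called lower in both sexes, at 13, 13 and 12 FPKM in HFD+QG, HFD+EGCG and HFD females, against 18 FPKM in ND females.

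Scaling bears on the small falls. With each library centred on its median, the median of all genes for HFD against ND in females was 0.15, against -0.12 as deposited, and GstZ1, GstT1, GstE8, GstE6 and GstE11 were no longer called in females, while GstD3 and GstO1 still were, and GstO2, GstT3, GstT4 and Ugt86Dh were called higher. GstD5 was lost without the HFD+QG female library (adjusted p = 0.0573), and GstE11 was lost without the HFD or HFD+EGCG male library and without the HFD or HFD+QG female library. In the alternatives that tested the gene, 11 of the 17 female calls were made each time. GstE2 and Ugt86Dj, among these 11, were too low to be tested with the filter of 5 FPKM. Egg markers summed to 6540, 1459 and 1201 FPKM in HFD+QG, HFD+EGCG and HFD females, against 21894 FPKM in ND females. Muscle markers summed to 3989, 4473 and 4404 FPKM in those high-fat females, against 1967 FPKM in ND females, with 12 of 13 called higher. Malpighian tubule markers summed to 465, 437 and 510 FPKM, against 320 FPKM in ND females, with 5 of 10 called higher and 1 lower. Midgut markers summed to 11386, 13144 and 12315 FPKM, against 19812 FPKM in ND females, with 8 of 14 called lower. Fat body markers summed to 8575, 8636 and 7332 FPKM, against 22065 FPKM in ND females, with 1 of 10 tested called higher and 2 lower. Most of this sum was yolk protein genes. Yp1, Yp2 and Yp3 measured 2385, 1189 and 1895 FPKM in HFD females, against 7367, 6531 and 6552 FPKM in ND females. Yp3 and Lsp2 were the 2 called lower. Desat1, at 716, 725 and 752 FPKM against 531 FPKM in ND females, was called higher. Antenna and head markers summed to 4065, 4363 and 4497 FPKM, against 1681 FPKM in ND females, with 8 of 14 called higher. Oenocyte markers summed to 8056, 7448 and 7247 FPKM, against 2571 FPKM in ND females, with 3 of 4 tested called higher. The part of these shifts in the members' changes was not tested.

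**Figure D2:**
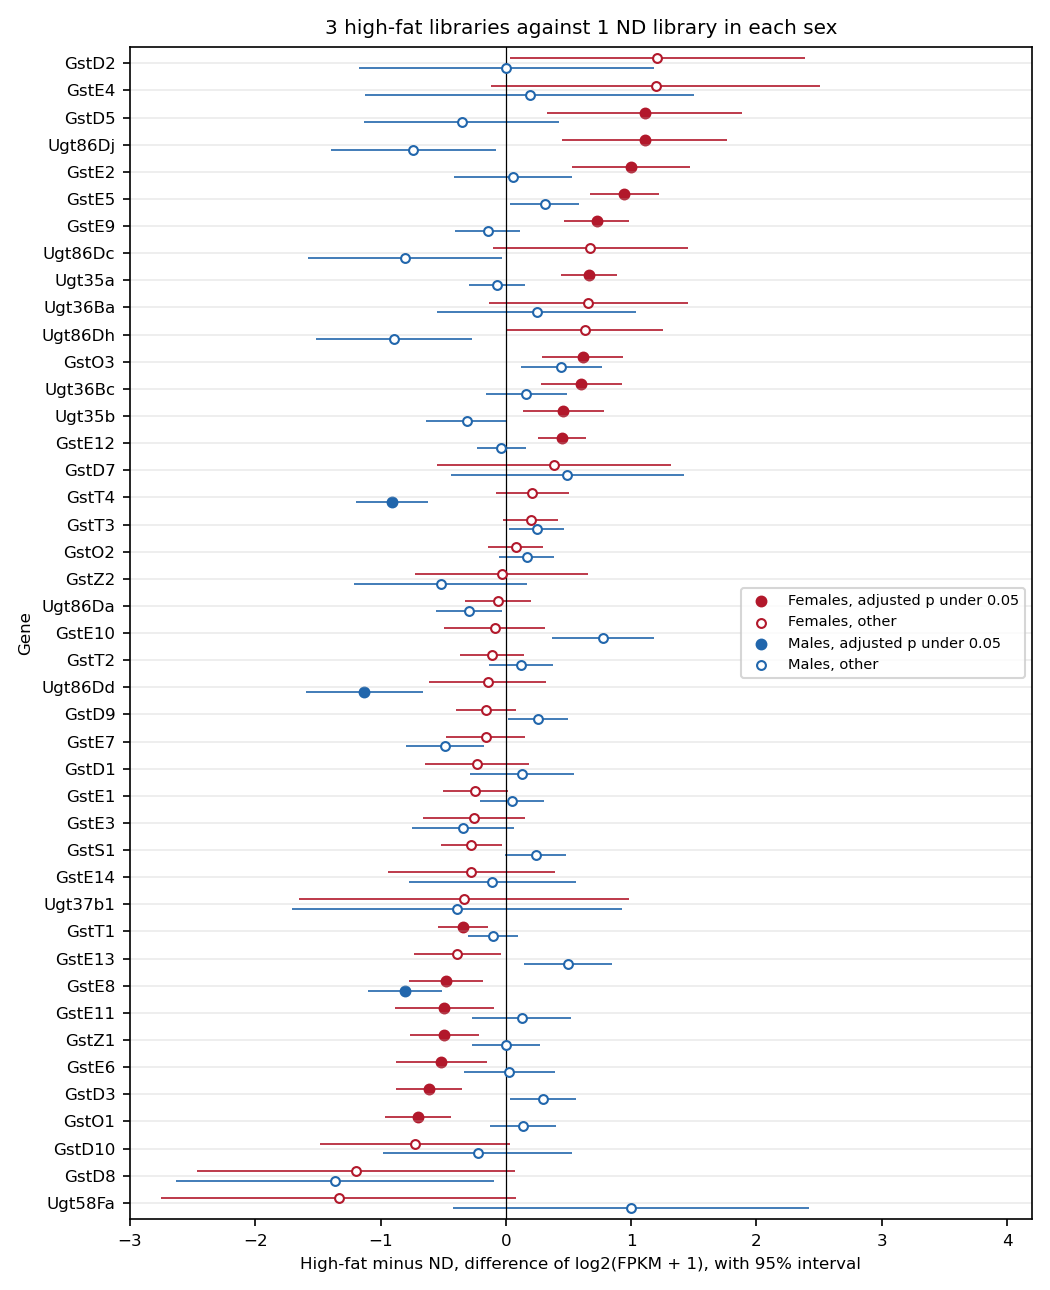
Difference of log2(FPKM + 1) between the 3 high-fat libraries and the ND library for the 43 tested genes, females in red above males in blue, with 95% intervals and filled points where the adjusted p was under 0.05. The genes are ordered by the female difference. Female points are filled at both ends of the order (10 higher, 7 lower), and the 3 filled male points, GstT4, GstE8 and Ugt86Dd, all lie below 0.

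The signed high-fat change was then compared between the sexes. Of the 43 members 21 had the same sign in both sexes and 21 had opposite signs, and 1 had no change in males, against 43.9% and 49.3% of all genes. The difference, female change minus male change, was past the threshold for 17 members: 12 higher, where 14.0% of all genes were called, and 5 lower, where 21.9% were called. Those 12 were 27.9% of the members and those 5 were 11.6%. With median-centred libraries the counts were 14 higher and 2 lower, against 18.6% and 8.1% of all genes.

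The 6 Ugt genes of the higher set all lie in 1 cluster. Ugt86D and Ugt35 genes form a cluster of 10 on chromosome arm 3R (11126597 to 11177910 in the coordinates of the deposited tables). Of its 7 tested genes, 6 had a female minus male difference above 0 that passed, where 14.0% of all genes did. The other, Ugt86Da, did not pass limma (difference 0.23, SE 0.16, adjusted p = 0.285). Summed over the cluster, females measured 93, 97 and 99 FPKM on HFD+QG, HFD+EGCG and HFD, against 76 FPKM on ND, and males measured 109, 113 and 111 FPKM, against 155 FPKM on ND. The cluster sum was thus above ND on high-fat food in females and below it in males. By gene, 3 of the 7 tested were called higher in females, where 20.8% of all genes were. In males 1 was called lower, where 1.55% of all genes were. Ugt86Da measured 36, 35 and 35 FPKM in HFD+QG, HFD+EGCG and HFD females, against 37 FPKM in ND females. Ugt86Dj differed by 1.84 (SE 0.40, adjusted p = 0.0122) and Ugt86Dh by 1.52 (SE 0.38, adjusted p = 0.019). Both are low: Ugt86Dh measured 4, 4 and 3 FPKM in HFD+QG, HFD+EGCG and HFD females, against 2 FPKM in ND females, and 3, 3 and 4 FPKM in those high-fat males, against 7 FPKM in ND males. Ugt35b differed by 0.77 (SE 0.20, adjusted p = 0.0203), with 44, 41 and 45 FPKM in HFD+QG, HFD+EGCG and HFD males, against 54 FPKM in ND males. Ugt86Dc and Ugt86Dd, at 1.48 and 0.98, were not called in 8 and 3 of the alternatives.

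GstT4 differed by 1.12 (SE 0.18, adjusted p = 0.00473). It measured 59, 72 and 58 FPKM in HFD+QG, HFD+EGCG and HFD females, against 54 FPKM in ND females, so the fall seen in males had no counterpart in females. GstE9 differed by 0.87 (SE 0.16, adjusted p = 0.00713), with 105, 108 and 104 FPKM in HFD+QG, HFD+EGCG and HFD males, against 117 FPKM in ND males. In the other direction, GstD3 differed by -0.91 (SE 0.16, adjusted p = 0.0065), with 41, 37 and 37 FPKM in HFD+QG, HFD+EGCG and HFD males, against 31 FPKM in ND males. GstO1 differed by -0.84 (SE 0.16, adjusted p = 0.00832), with 37, 31 and 35 FPKM in HFD+QG, HFD+EGCG and HFD males, against 31 FPKM in ND males. GstE13, GstE10 and GstS1 were also lower in this difference, and none of these 3 was called with median-centred libraries.

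The Delta and Epsilon clusters did not move as blocks. The 11 Delta genes lie on 3R (12364776 to 12385624). In females 1 of its 8 tested genes rose and 1 fell, where 20.8% of all genes were called higher and 31.0% lower. In the cluster of GstE1 to GstE10 on arm 2R, 3 of the 10 genes rose in females and 2 fell, beside those same shares. Among neighbours GstE5 rose and GstE6 fell, as GstE9 rose and GstE8 fell. GstE14, known also as noppera-bo, an enzyme of ecdysone synthesis that lies outside the cluster, measured 2 to 3 FPKM in females and 3 to 4 FPKM in males on all diets.

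**Figure D3:**
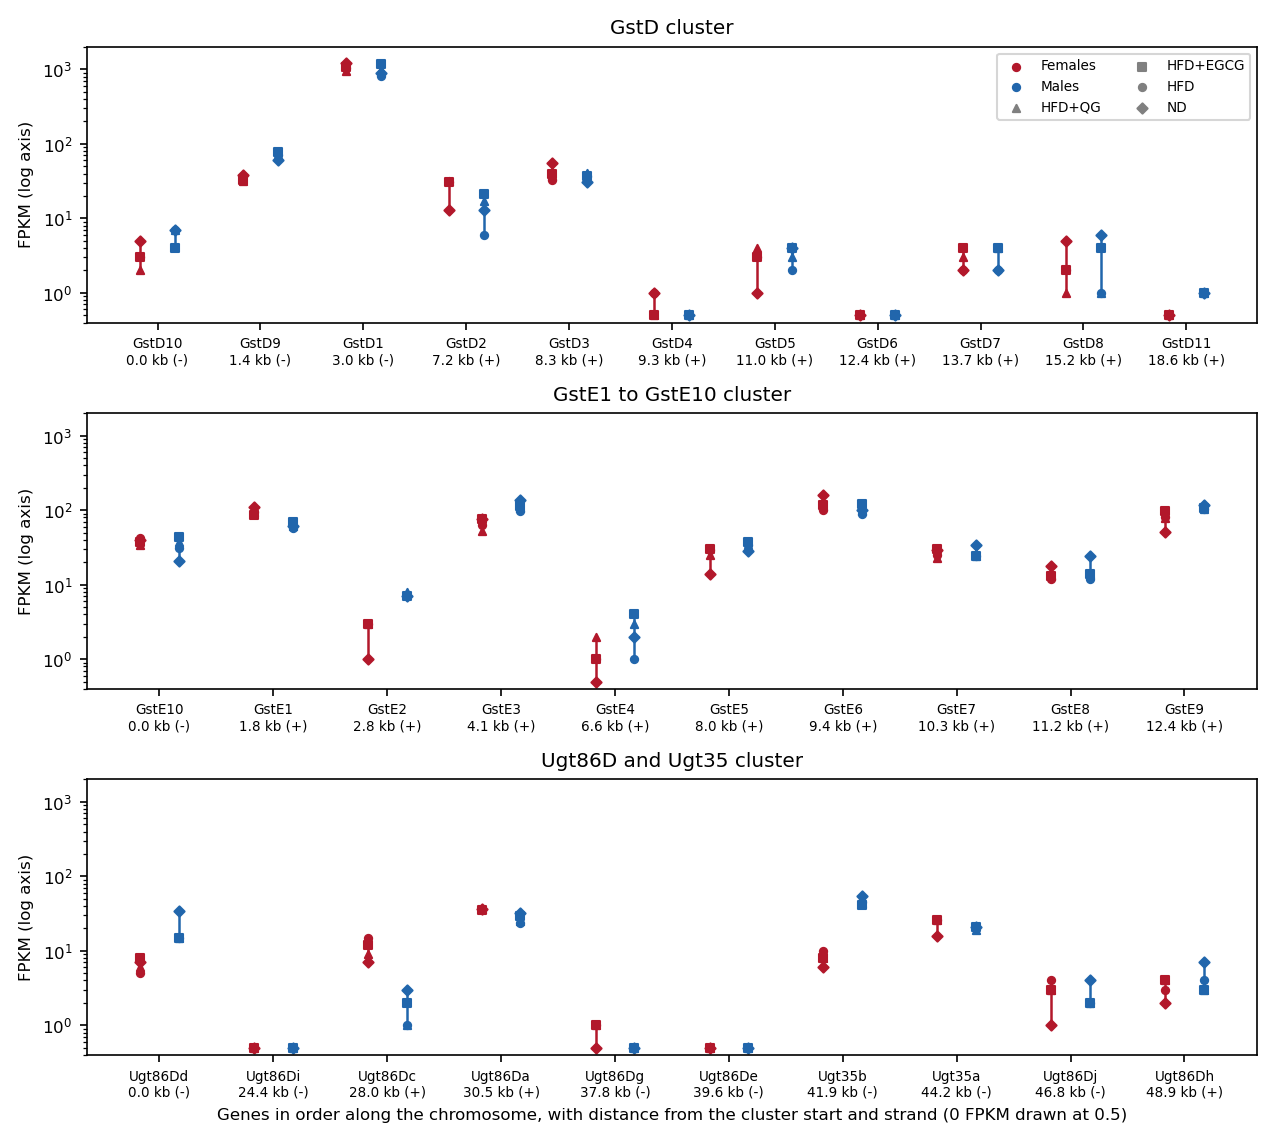
FPKM on a log axis of the genes of the GstD, GstE1 to GstE10 and Ugt86D with Ugt35 clusters, in their order along the chromosome, with females in red left of males in blue and a marker shape for each diet. The lines join the lowest and highest of the 4 libraries of a sex. In the lowest panel the male ND marker is the top one for Ugt86Dd, Ugt86Dc, Ugt86Da, Ugt35b, Ugt86Dj and Ugt86Dh. The female ND marker is the lowest for Ugt86Dc, Ugt86Dg, Ugt35b, Ugt35a, Ugt86Dj and Ugt86Dh.

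HFD alone was compared with ND in a model of sex and diet over all 8 libraries. No member passed limma at an adjusted p under 0.05, 6 of 9848 genes did (0.0609%), and 5 members had an unadjusted p under 0.05, of 1184 genes. Those 5 were GstE8 (log2 change -0.75, SE 0.19, adjusted p = 0.255), GstO3 (0.52, SE 0.15, adjusted p = 0.281), GstD8 (-1.40, SE 0.42, adjusted p = 0.286), GstE5 (0.64, SE 0.21, adjusted p = 0.324) and Ugt86Dd (-0.77, SE 0.31, adjusted p = 0.386). They had the same sign in both sexes. GstD8 measured 2 FPKM in HFD females, against 5 FPKM in ND females, and 1 FPKM in HFD males, against 6 FPKM in ND males. Left out alone, the male ND library brought this count to 19 members, where 47.6% of all genes were called, and the female ND library brought it to 6 members, where 7.86% were called. Each of these fits sets HFD against the ND library of a single sex.

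As a plain fold over single libraries, at least 2-fold on the log2(FPKM + 1) scale, HFD against ND gave 7 higher and 3 lower members in females, where 14.9% and 5.22% of all genes passed. In males it gave 1 higher and 4 lower members, where 1.62% and 2.98% passed. GstD2 went opposite ways: it measured 31 FPKM in HFD females, against 13 FPKM in ND females, and 6 FPKM in HFD males, against 13 FPKM in ND males. GstD8 was among the lower members in both sexes. The median log2 change of HFD against ND over the Gst genes above 0 was -0.21 in females and 0.00 in males, beside -0.12 and 0.00 over all genes. With median-centred libraries the female Gst median was 0.07, beside 0.15 over all genes. Over the Ugt genes the median as deposited was 0.65 in females, with 9 of 13 above 0, and -0.26 in males, with 7 of 11 below 0.

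Quercetin glucoside and epigallocatechin gallate, a flavonol glycoside and a catechin ester of green tea, were each compared with HFD alone in the same model. These 2 comparisons share the HFD libraries with each other and with HFD against ND, and since their doses are unknown here the compounds were not compared with each other. No member passed limma in either comparison, and none had an unadjusted p under 0.05. No gene of 9848 passed (0.0% each), where 70 genes had an unadjusted p under 0.05 for HFD+QG and 62 for HFD+EGCG. The lowest adjusted p among members was 1.0 in both. The model gives females and males the same diet change, so unequal changes, ND included, enlarge its residual variance. With both ND libraries left out, the SE of GstD2 was 0.20 in place of 0.45. Its log2 changes for HFD+QG and HFD+EGCG still differed by sex, at 0.04 and 0.00 in females and 1.36 and 1.65 in males. Since limma draws each gene's variance towards that of other genes, the smaller SE does not mean that the sexes agreed. In that fit 81 genes passed for HFD+QG and 69 for HFD+EGCG. The absence of calls in the fit over all libraries is therefore not evidence that the supplements left members unchanged.

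GstD2 had the largest log2 change of any Gst or Ugt gene in males with both supplements, 1.36 for HFD+QG and 1.65 for HFD+EGCG. It measured 32, 31 and 31 FPKM in HFD+QG, HFD+EGCG and HFD females, and 17, 21 and 6 FPKM in HFD+QG, HFD+EGCG and HFD males. The female libraries lay within 1 FPKM of each other, while among males HFD was the lowest and ND, at 13 FPKM, lay between. The fits average over the sexes, so a call in them stands for a GstD2 change seen in males only. Over both sexes its log2 change was 0.70 for HFD+QG (SE 0.45, adjusted p = 1.0) and 0.83 for HFD+EGCG (SE 0.45, adjusted p = 1.0). In a fit without the 2 ND libraries, added after the data were seen, the HFD+EGCG change was called (0.83, SE 0.20, adjusted p = 0.0347), where 0.701% of genes were called, and the HFD+QG change was not (0.70, SE 0.20, adjusted p = 0.0955), where 0.823% were. Without the male ND library alone GstD2 was called for HFD+QG (adjusted p = 0.0335) and HFD+EGCG (adjusted p = 0.0074), and without the female ND library alone for HFD+EGCG (adjusted p = 0.0411) but not for HFD+QG (adjusted p = 0.106), all by limma.

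At least 2-fold changes with HFD+QG were few. In males GstD2 and GstE4 were higher, where 1.32% of all genes were, with GstE4 at 3 FPKM in HFD+QG males and 1 FPKM in HFD males. In females Ugt37b1 was higher, listed at 1 FPKM in HFD+QG and at 0 in HFD, where 1.95% of all genes were. No tested member was 2-fold lower, where 1.39% of all genes in males and 2.28% in females were.

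With HFD+EGCG, GstD2, GstD8 and GstE4 were at least 2-fold higher in males, where 1.79% of all genes were, and no member was lower, where 1.37% were. GstD8 and GstE4 each measured 4 FPKM in HFD+EGCG males and 1 FPKM in HFD males. In females Ugt37b1 was listed at 1 FPKM in HFD+EGCG and at 0 in HFD, where 1.81% of all genes were higher, and Ugt58Fa at 0 in HFD+EGCG and at 1 FPKM in HFD, where 2.38% were lower. None of these changes but that of GstD2 in males involved a value above 4 FPKM.

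Small shifts of like sign were more common. HFD+QG was above HFD in both sexes for 15 of 43 members (34.9%), against 15.2% of all genes, and below in both for GstD9 and Ugt35b, against 17.7% of all genes. HFD+EGCG was above HFD in both sexes for 11 members (25.6%), against 12.6% of all genes, and below in both for Ugt35b, against 13.2% of all genes. This count was chosen after the values were seen. With each library divided by its summed FPKM, the HFD+QG share was 51.2% of members against 49.6% of all genes, and the HFD+EGCG share 39.5% against 23.9%, so the first of these differences rests on the scaling. GstE6 was above HFD with both supplements and in both sexes, at 115 and 119 FPKM in HFD+QG and HFD+EGCG females, against 100 FPKM in HFD females, and at 98 and 120 FPKM in HFD+QG and HFD+EGCG males, against 90 FPKM in HFD males. GstT4, GstE8 and GstD7 shared that pattern. Ugt35b was below HFD in all 4 cases, at 8 and 8 FPKM against 10 FPKM in HFD females and at 44 and 41 FPKM against 45 FPKM in HFD males. None of these passed a test.

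**Figure D4:**
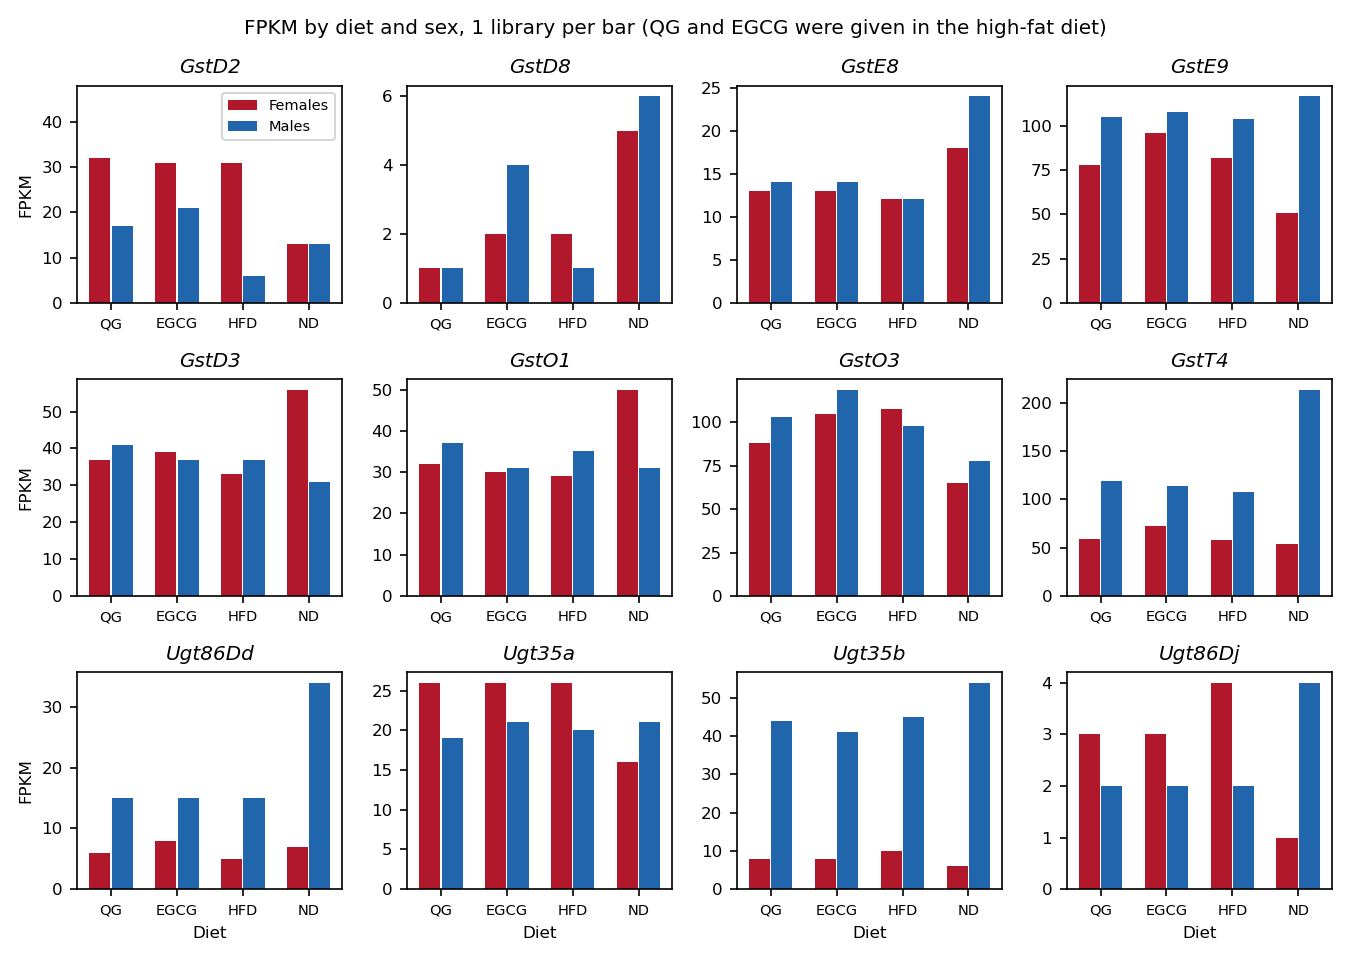
FPKM of 12 members by diet, 1 library per bar, with females in red left of males in blue. In the panel of GstD2 the male HFD bar, 6 FPKM, is the lowest and the 3 high-fat female bars stand at 31 to 32 FPKM. GstT4 and Ugt86Dd show a single tall bar in ND males (214 and 34 FPKM).

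Single transcripts carried part of these patterns. GstS1 has 4 transcripts in the tables, of which FBtr0087005 measured 51 to 75 FPKM in females and 298 to 377 FPKM in males, and FBtr0087006 measured 9 to 17 FPKM in females and 103 to 121 FPKM in males. The first was lower on high-fat food in females, at 52, 55 and 51 FPKM on HFD+QG, HFD+EGCG and HFD against 75 FPKM on ND, and the second was higher, at 16, 16 and 17 FPKM against 9 FPKM on ND. For GstE10, FBtr0344195 was listed at 0 in every male library and measured 4, 3 and 4 FPKM in HFD+QG, HFD+EGCG and HFD females, against 15 FPKM in ND females. Its other transcript, FBtr0086726, was higher on high-fat food in both sexes, at 30, 34 and 38 FPKM in HFD+QG, HFD+EGCG and HFD females, against 25 FPKM in ND females. The 2 GstE10 transcripts thus went opposite ways in females. GstE10 overlaps GstE1 on the other strand, and how reads were split among transcripts was not tested.

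Of 59 other genes listed for glutathione and UDP-sugar supply, detoxification and its regulation, 49 were found and 41 tested. In high-fat females 8 rose (19.5%, against 20.8% of all genes) and 6 fell (14.6%, against 31.0%). In high-fat males none rose and 4 fell (9.76%, against 1.55% of all genes), and none passed for HFD against ND, HFD+QG against HFD or HFD+EGCG against HFD. Of 5 tested regulators, 3 were called in high-fat females by limma, where 51.8% of all genes were called. The gene maf-S, whose small Maf protein pairs with CncC, rose (log2 change 0.40, adjusted p = 0.0114), and Hr96, a nuclear receptor of the response to foreign compounds (-0.36, adjusted p = 0.0182), and tgo, a partner of bHLH-PAS factors (-0.52, adjusted p = 0.00622), fell. The other two, cnc, which encodes CncC, and Keap1, were not called in either sex. The gene cnc measured 58, 56 and 57 FPKM in HFD+QG, HFD+EGCG and HFD females, against 60 FPKM in ND females, and 57, 54 and 56 FPKM in those high-fat males, against 66 FPKM in ND males. Among suppliers, Gclc, the catalytic subunit of the first enzyme of glutathione synthesis, measured 38, 36 and 37 FPKM in HFD+QG, HFD+EGCG and HFD males, against 54 FPKM in ND males, and fell (log2 change -0.53, adjusted p = 0.0225, limma). UGP, which makes UDP-glucose, measured 55, 50 and 56 FPKM in HFD+QG, HFD+EGCG and HFD males, against 94 FPKM in ND males, and fell too (log2 change -0.80, adjusted p = 0.0183, limma). In females Gclc and UGP did not pass. Mgstl, a membrane-bound GST outside the naming rule, measured 202, 167 and 200 FPKM in HFD+QG, HFD+EGCG and HFD females, against 122 FPKM in ND females, and rose (log2 change 0.63, adjusted p = 0.00528, limma).

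Summed FPKM ran from 885956 to 900619 in female libraries and from 927015 to 1000513 in male libraries, and 9473 to 9844 genes in females and 12758 to 12892 in males were above 0. Read depth is unknown, since the tables hold no counts. Oenocyte markers summed to 655 and 664 FPKM in HFD+QG and HFD+EGCG males, against 10322 FPKM in HFD males. This drop was that of Cyp4g1, a gene that oenocytes express highly, listed at 9726 FPKM in HFD males and at 0 in both supplement libraries. Cyp4g1 measured 9209 FPKM in ND males, and 7322 and 6747 FPKM in HFD+QG and HFD+EGCG females. Whether the listed 0 stands for a measured level was not tested. The other oenocyte markers did not fall. FASN2 measured 111 and 116 FPKM in HFD+QG and HFD+EGCG males, against 92 FPKM in HFD males. Cpr measured 513 and 518 FPKM, against 474 FPKM, and CG18609 31 and 30 FPKM, against 30 FPKM.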

How the data were processed

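The authors deposited FPKM for every FlyBase transcript, rounded to whole numbers, a unit handled here as a score. The submitters' processing notes name Cuffdiff 2.2.1, TopHat2 2.1.1 and CASAVA 1.8.2. The genome build, the scaling and whether counting used strand are not given in the sources used here. Of 52 member positions 51 equal those of the reference annotation BDGP6.54, and coordinates are those of the deposited tables. With no counts, no depth, counting interval or floor can be given.

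Transcripts were summed per gene and tested as log2(FPKM + 1) for 9848 genes at 1 FPKM or more in a library of each sex, with limma 3.58.1 in R 4.3.3 (variance trend, Benjamini-Hochberg adjustment over those genes). Fits were sex plus diet over 8 libraries (3 residual degrees of freedom) and high-fat against ND within each sex with their difference (4 residual degrees of freedom). Since whole-number rounding leaves low genes with no spread, a rounding variance of 1/12 FPKM squared per transcript above 0 was added to the residual variance. This was added after a test on simulated rounded data, which then recovered 96% of 2-fold changes for HFD against ND, 79% for high-fat males and 90% for high-fat females, with 5 false calls of 201, 4 of 183 and 7 of 197. No change was simulated for the difference between sexes, which gave 0 calls. The simulated noise had the same spread in every gene and library. Changed genes had the same change in both sexes, and none was taken from low levels. In the real data the difference between sexes was called for 3533 of 9848 genes, so these rates do not carry over to them.

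Alternatives were a pseudocount of 5, other filters, median-centred libraries, a common sum, the most abundant transcript, no variance trend, no rounding variance and leaving out libraries. Clusters are members within 50 kb of the next. Named genes are the most abundant of each class, the 5 largest changes of one sign in both sexes, the 3 that differ most between sexes, the 5 most biased to each sex and up to 10 that pass limma in a comparison; others named illustrate counts and were picked after their values were seen. The members, gene lists and tests were chosen with earlier results of these data known.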

Additional observations from a re-analysis of the deposited data

Results flagged for a closer look

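For 17 members the change on high-fat food differed between females and males by limma's test of the difference (female change minus male change, log2(FPKM + 1) scale). The signed difference was above 0 for Ugt86Dj (1.84), Ugt86Dh (1.52), Ugt86Dc (1.48), GstD5 (1.46), GstT4 (1.12), Ugt86Dd (0.98), GstE2 (0.94), GstE9 (0.87), Ugt35b (0.77), Ugt35a (0.74), GstE5 (0.64) and GstE12 (0.48). It was below 0 for GstD3 (-0.91), GstE13 (-0.89), GstE10 (-0.87), GstO1 (-0.84) and GstS1 (-0.51). GstD3, GstE5, GstE9, GstE12, GstO1, GstT4, Ugt35a, Ugt35b and Ugt86Dj were called in every alternative that tested them, 9 of the 17. Ugt86Dj was too low to be tested with the filter of 5 FPKM. GstD5, GstE2 and Ugt86Dc were called in 4, 5 and 5 of 13 alternatives, and GstS1 was lost without the HFD+QG library of either sex. In each sex the change rests on 1 ND library, and egg markers, 21894 FPKM in ND females, move with the female change; their part was not tested.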

How the results depend on the processing

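No called member changed direction. Leaving out 1 library at a time gave 0 to 19 members for HFD against ND, 0 to 1 for HFD+QG and for HFD+EGCG (GstD2), 3 to 5 for high-fat males, 15 to 21 for high-fat females, 13 to 16 for the difference between sexes and 21 to 26 members whose sexes do not overlap. With median-centred libraries the high-fat female and difference calls were each 14 higher and 2 lower. The HFD against ND count of 19 came without the male ND library and that of 6 without the female one. The high-fat male count of 5 came without the HFD male library. Without both ND libraries HFD+EGCG gave 1 member. High-fat males gave 1 member with the most abundant transcript and 0 with no variance trend. Over all genes the high-fat male count was 383, against 814 with no rounding variance, 539 with a filter of 5 FPKM, 214 with median-centred libraries, 201 with a common sum, 196 with no filter, 131 with the most abundant transcript and 1 with no trend.

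At least 2-fold members for HFD against ND were 0 in males and 1 in females with a pseudocount of 5, 3 and 3 with a filter of 5 FPKM, and 5 in females with a common sum. For HFD+QG they were 1 in males and 0 in females with a pseudocount of 5, 1 and 0 with a filter of 5 FPKM, and in females 2 with no filter, 0 median-centred and 2 with the most abundant transcript. For HFD+EGCG they were 1 in males and 0 in females with a pseudocount of 5, and in females 0 with a filter of 5 FPKM, 1 median-centred and 0 with a common sum. The Gst median for HFD against ND in females was 0.069 median-centred, the Gst median for HFD+QG in males 0.19 with a common sum, and the Ugt median for HFD against ND in females 0.40 with a pseudocount of 5 and 0.93 median-centred. The causes were not tested. Of single-gene changes 33 of 198 moved with centring and 51 of 198 with a pseudocount of 5.

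No paired analysis was possible because the labels give no replicate numbers, and the only grouping across diets is sex, which the sex plus diet fit already holds as a term. The promoter search was not run. Rounding to whole FPKM limits every member under 5 FPKM.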
